A study of Mus musculus with 6 samples.

Results

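The genes for the protein subunits of the cytosolic ribosome were compared between testes with and without SEL1L in germ cells. The members were chosen by gene symbol. No measured value entered that rule, but the family was chosen with earlier results of these data known. They are the protein-coding genes whose GENCODE symbol begins with Rpl or Rps and a digit, together with Rplp0, Rplp1, Rplp2 and Rpsa, and without the Rps6k kinases and symbols ending in -ps or -ps and a number. This gave 86 of 55536 genes, 52 of them for the large subunit (Rpl) and 34 under small subunit symbols (Rps and Rpsa). One of the 34, Rps19bp1, encodes a protein that binds RPS19 and is not itself a subunit. After edgeR's filter on low counts, 85 of the 86 were tested among 21465 genes, and Rpl24 was too low to enter.

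Whole testes of 7-week-old mice were analysed, 3 KOStra8 and 3 HETStra8, with 1 poly(A)+ library per mouse. KOStra8 mice carry a floxed (flox) and a deleted (Δ) Sel1L allele and Stra8-Cre, a recombinase under a promoter that works in male germ cells and only partly in spermatogonia. The study groups flox/+;Stra8-Cre and flox/Δ animals as HETStra8, whereas the labels give flox/Δ littermates and no genotype for single mice, so whether each HETStra8 mouse carries Cre is not known here. Sertoli, Leydig and other somatic cells, which the Cre does not target, are in the same RNA. Library totals lay between 28875108 and 36526695 counts. Sel1l itself was at 49.3, 47.6 and 42.4 CPM (counts scaled to a common library size with TMM factors) in HETStra8 mice 1 to 3 and at 24.2, 22.0 and 20.3 CPM in KOStra8 mice 1 to 3, lower in every KOStra8 mouse as labelled. Marker lists of every germ cell stage and of Sertoli and Leydig cells were detected in all mice, with no marker at 0 in all of them.

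A ribosome joins a small subunit, which reads the messenger RNA, to a large subunit, which forms the peptide bond, and each protein of either subunit is as a rule needed once per ribosome. Several ribosomal protein genes lie on the X chromosome, which is silenced during male meiosis. Germ cells express autosomal copies of some of them, among them Rpl10l and Rpl39l, which arose by retroposition or duplication and encode close relatives of RPL10 and RPL39. Rpl10l is required for the passage of spermatocytes through meiosis, and RPL39L lines the exit tunnel of ribosomes in male germ cells.

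The 2 testis paralogs can be told from their X-linked parents by sequence, which is why their coding sequences are shown here. All are from GENCODE M21 on GRCm38 and are given in the direction of the messenger, from the start codon, with the bases that differ within a pair in capitals. The coding sequence of Rpl10l lies in 1 exon, chr12:66283713-66284357 on the minus strand, and that of Rpl10 in 6 exons, chrX:74271002-74273067 on the plus strand. Their first 120 of 645 bases differ at 18 positions:
Rpl10l: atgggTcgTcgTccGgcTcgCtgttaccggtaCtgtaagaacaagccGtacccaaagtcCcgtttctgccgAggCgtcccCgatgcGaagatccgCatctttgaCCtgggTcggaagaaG
Rpl10: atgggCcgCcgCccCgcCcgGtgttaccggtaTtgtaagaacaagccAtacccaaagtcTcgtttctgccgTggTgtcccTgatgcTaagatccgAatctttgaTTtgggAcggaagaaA
Rpl39l has 1 coding exon, chr16:10174310-10174465 on the plus strand, and Rpl39 has 3, chrX:37082701-37085127 on the minus strand. Both coding sequences have 156 bases:
Rpl39l: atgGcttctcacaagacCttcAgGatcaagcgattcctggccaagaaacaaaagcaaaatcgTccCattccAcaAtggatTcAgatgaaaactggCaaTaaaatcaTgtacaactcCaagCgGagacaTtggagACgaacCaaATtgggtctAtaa
Rpl39: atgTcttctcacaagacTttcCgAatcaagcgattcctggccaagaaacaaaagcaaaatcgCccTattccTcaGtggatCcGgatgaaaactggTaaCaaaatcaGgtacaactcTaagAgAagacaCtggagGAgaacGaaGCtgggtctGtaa

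Over the whole coding sequence, 98 of 645 bases differed between Rpl10l and Rpl10, and 93 of the 96 codons concerned encode the same amino acid. Between Rpl39l and Rpl39, 23 of 156 bases differed, and 18 of 21 codons encode the same amino acid. The longest run of identical coding bases was 23 for the first pair and 38 for the second, shorter than a sequenced read of 150 bases. Sequence shared with further genes differed more widely. Of the 50-base stretches in the transcript, 7.6% were found in another gene for Rpl10l and 0.0% for Rpl39l, against 92.1% for Rpl10 and 16.5% for Rpl39. Of the 86 members, 54 shared over 50% of such stretches with other genes. How reads that match several genes were counted is not given in the sources used here, so the level of such members is uncertain.

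Rpl10l and Rpl39l both had more counts per length than their X-linked parents in each of the 6 mice. Per kb of transcript, Rpl10l was at 156, 148 and 141 CPM in HETStra8 mice 1 to 3 and at 136, 153 and 145 CPM in KOStra8 mice 1 to 3. Rpl10 was at 45.8, 35.2 and 34.6 CPM per kb in the HETStra8 mice and at 31.6, 38.9 and 30.6 in the KOStra8 mice. The ratio of paralog to parent thus lay between 3.41 and 4.73 over the 6 mice. Of the stretches of Rpl10 with the read length of 150 bases, 90.9% occur in other genes, against 0.0% for Rpl10l. The count of Rpl10, and with it this ratio, depends on how such reads were treated, which is not given. Rpl39l was at 176.5, 169 and 167 CPM per kb in HETStra8 and at 143, 178 and 157 in KOStra8, and Rpl39 at 9.10, 6.12 and 6.28 and at 9.50, 5.65 and 6.13. The ratio of Rpl39l to Rpl39 lay between 15.1 and 31.5, and the 2 mice with the most Rpl39, HETStra8 mouse 1 and KOStra8 mouse 1, gave its lowest values, 19.4 and 15.1.

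Rps4x, another X-linked member, also stood below an autosomal relative. Rps4l, which the annotation types as a transcribed processed pseudogene and which is therefore no member, was at 109, 95.1 and 89.5 CPM per kb in HETStra8 and at 78.6, 88.1 and 80.6 in KOStra8. Rps4x was at 28.5, 24.5 and 18.5 CPM per kb in HETStra8 and at 19.6, 24.6 and 17.9 in KOStra8, a ratio of 3.58 to 4.83. Of the 50-base stretches of Rps4x, 72.2% occur in other genes, and of its 150-base stretches 4.5%. Rps4l was the lower in every KOStra8 mouse, with a log2 fold change of -0.25 ± 0.09 (SE) and an adjusted p = 0.301 by edgeR's quasi-likelihood test, and of -0.09 after correction for base composition and length.

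The other 5 paralogs stood below their parents per length in every mouse. The ratio was 0.482 to 0.611 for Rpl22l1 and Rpl22, 0.151 to 0.205 for Rpl7l1 and Rpl7, 0.144 to 0.177 for Rps27l and Rps27, and 0.0936 to 0.168 for Rpl36al and the X-linked Rpl36a. For Rpl36al, with 27 to 51 counts per library, 63.1% of the exon bases are covered by Gm49383 on the same strand, so this last ratio is uncertain. Rpl3l, the striated muscle form of Rpl3, had 4 to 15 counts per library, at most 0.00371 of the level of Rpl3.

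**Figure D1:**
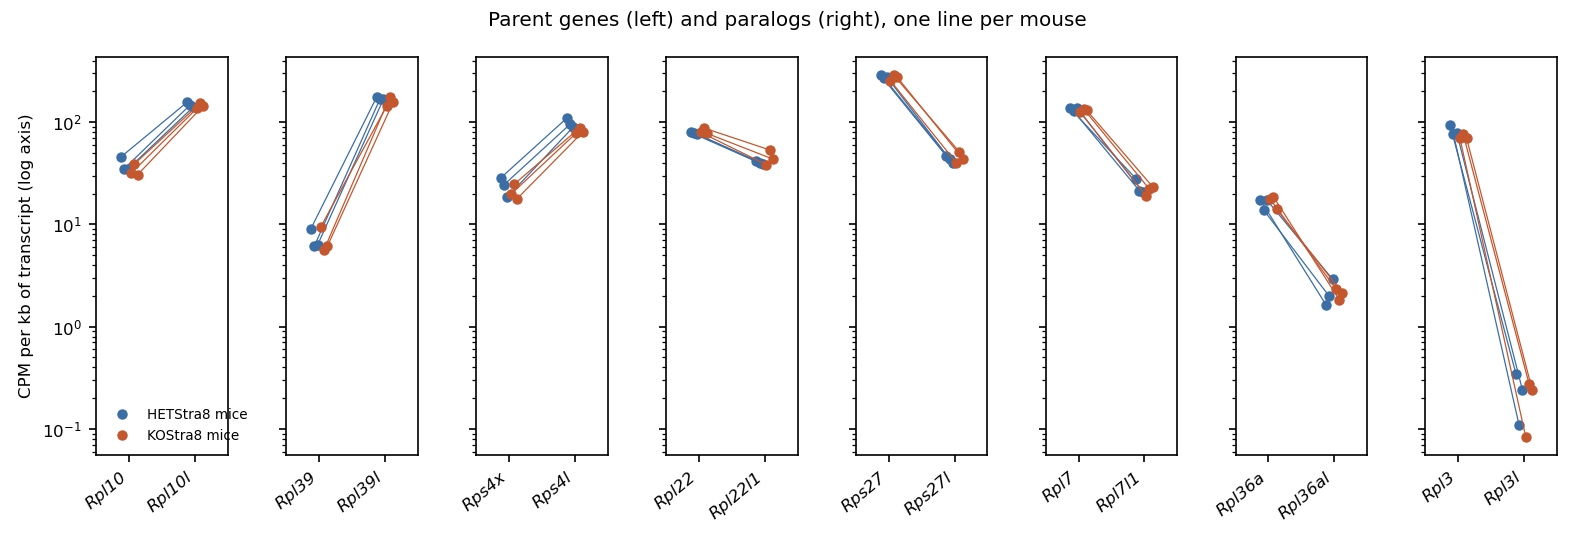
Level of 8 parent genes (left point) and their paralogs (right point), as CPM per kb of transcript on a log axis, with 1 line per mouse, blue for HETStra8 and orange for KOStra8. Rpl10l, Rpl39l and Rps4l lie above their X-linked parents in all 6 mice, and the other 5 paralogs lie below. The levels of Rpl10 and Rpl36al are uncertain, since Rpl10 shares most of its sequence, and Rpl36al most of its exon bases, with other genes.

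Whether loss of SEL1L changed the balance between a paralog and its parent was compared as the log2 ratio in each mouse. For Rpl10l to Rpl10 it was 2.31 ± 0.16 in HETStra8 and 2.46 ± 0.13 in KOStra8 (SD, n = 3), with a two-sided exact permutation p = 0.4. For Rpl39l to Rpl39 it was 4.43 ± 0.28 and 4.35 ± 0.54, with an exact permutation p = 0.8. Over the 8 pairs the exact p-values lay between 0.4 and 0.9 and were 0.9 after Benjamini-Hochberg adjustment, where 3 mice against 3 cannot give less than 0.1. The differences in log2 ratio, KOStra8 minus HETStra8, ran from -0.08 for Rpl39l to 0.15 for Rpl10l.

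The family as a whole spanned a wide range of levels. Members took 0.871% to 0.953% of all counts in HETStra8 and 0.828% to 0.907% in KOStra8. The median level was 129 CPM per kb, 70 members were above 40 CPM, and 6 were under 2 CPM. The highest per length was Rplp0, which anchors the stalk of the large subunit, at 472 CPM per kb over the 6 mice. It was followed by Rpl41, which encodes a very short and basic peptide, at 405, and by Rpl13 at 363. The lowest were Rpl24 at 0.186, Rpl3l at 0.216 and Rpl13a at 1.51 CPM per kb.

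Of the 6 members under 2 CPM, 4 share over 50% of their exon bases on the same strand with another annotated gene. For Rpl24, 71.5% of the exon bases were covered by Gm28037, and its counts were 3, 5 and 3 in HETStra8 and 9, 0 and 6 in KOStra8, where 3 counts would be 0.104 CPM in the mouse with 0. For Rps10, 91.6% of the exon bases were covered by RPS10-NUDT3, for Rpl36al 63.1% by Gm49383 and for Rpl13a 59.3% by Gm45713. Gm28037, RPS10-NUDT3 and Gm45713 had 0 counts in all libraries, and Gm49383 had 1 count in KOStra8 mouse 1. Reads on these exons can be given to either gene or to neither, and the levels of the 4 members are uncertain for that reason. The other low members were Rpl3l and Rps27rt, a single-exon copy of Rps27 that shares 91.1% of its 50-base stretches with other genes.

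**Figure D2:**
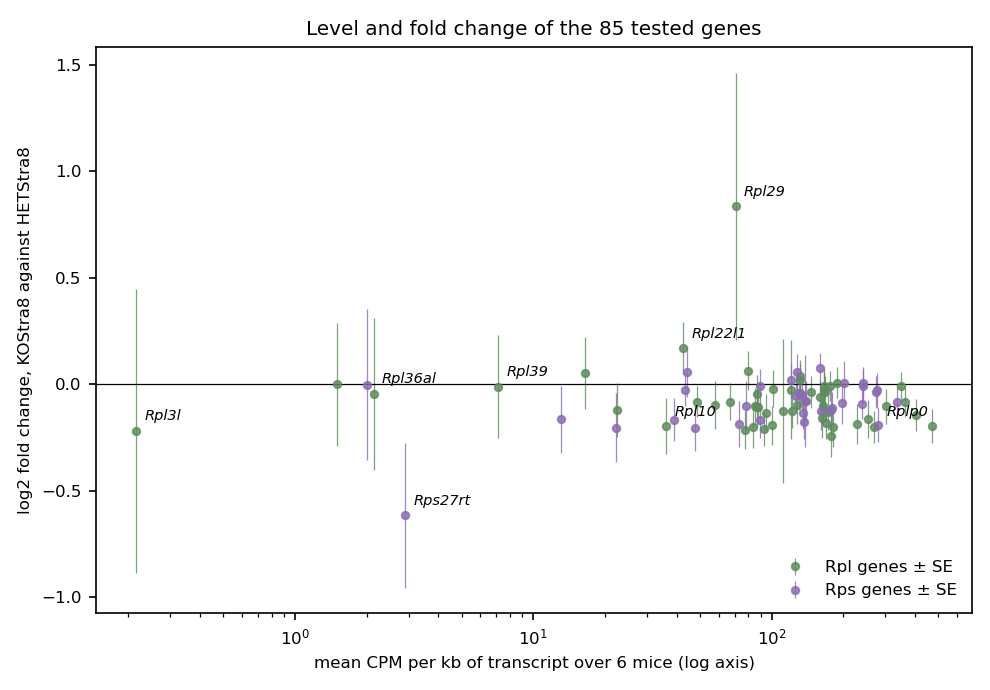
Mean level of the 85 tested members, as CPM per kb of transcript over the 6 mice on a log axis, against the log2 fold change of KOStra8 over HETStra8, with bars of 1 SE from edgeR. Of the 85, 83 lie within 0.25 of no change on the log2 scale, and the outlying Rpl29 and Rps27rt have standard errors of 0.63 and 0.34.

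In KOStra8 testes most ribosomal protein transcripts were slightly lower than in HETStra8 testes, and no member passed the test. The median log2 fold change of the 85 tested members was -0.09, against -0.01 over all genes tested, and 72 members had a negative value, 84.7% against 51.5% of all genes. The large and small subunit genes had medians of -0.10 and -0.08. By edgeR's quasi-likelihood test with Benjamini-Hochberg adjustment, 0 members passed the study's cutoffs, a fold of 2 with an adjusted p of 0.01, where 0.00932% of all genes passed, and 0 passed an adjusted p of 0.05, where 0.0233% did. DESeq2 and limma-voom likewise called 0 members at either cutoff. At the study's cutoffs edgeR called 1 higher and 1 lower gene among all genes, and DESeq2 called 5 and 1. The study reported more genes at these cutoffs than either fit. With so few genes called, 0 members says little about the family. At an unadjusted p of 0.05, 9 members were lower, 10.6% against a background of 5.12%, and 0 were higher against 7.13%. DESeq2 gave 8 lower, 9.30% against 2.89% of all genes, and limma-voom 9 lower, 10.6% against 4.99%. Both gave 0 higher, against 4.33% and 7.73%. KOStra8 values lay below all HETStra8 values for 14 members, 16.5% against 8.43% of all genes, and above them for 0, against 9.33%.

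These counts rested on single mice. HETStra8 mouse 1 held the highest value for 52 of the 78 members above 10 CPM and KOStra8 mouse 2 for 17, whereas KOStra8 mice 1 and 3 held the lowest for 34 and 32. Summed over all members, the levels were 9637, 8835 and 8698 CPM in HETStra8 mice 1 to 3 and 8221, 9045 and 8335 CPM in KOStra8 mice 1 to 3. The groups overlap, since KOStra8 mouse 2 exceeded 2 of the HETStra8 mice, and the mean of the KOStra8 mice came to 94.2% of that of the HETStra8 mice. The 9 members lower at an unadjusted p of 0.05 became 3 without HETStra8 mouse 1, 3.53% against 3.42% of all genes. They became 1 without KOStra8 mouse 1 (1.18% against 3.81%) and 0 without KOStra8 mouse 3 (against 2.27%). Without HETStra8 mouse 3 there were 18 (21.2% against 8.81%), and without KOStra8 mouse 2 there were 17 (20% against 4.24%). Without HETStra8 mouse 2 there were 6 (7.06% against 3.52%). The median log2 fold change lay between -0.12 and -0.03 over these 6 fits.

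**Figure D3:**
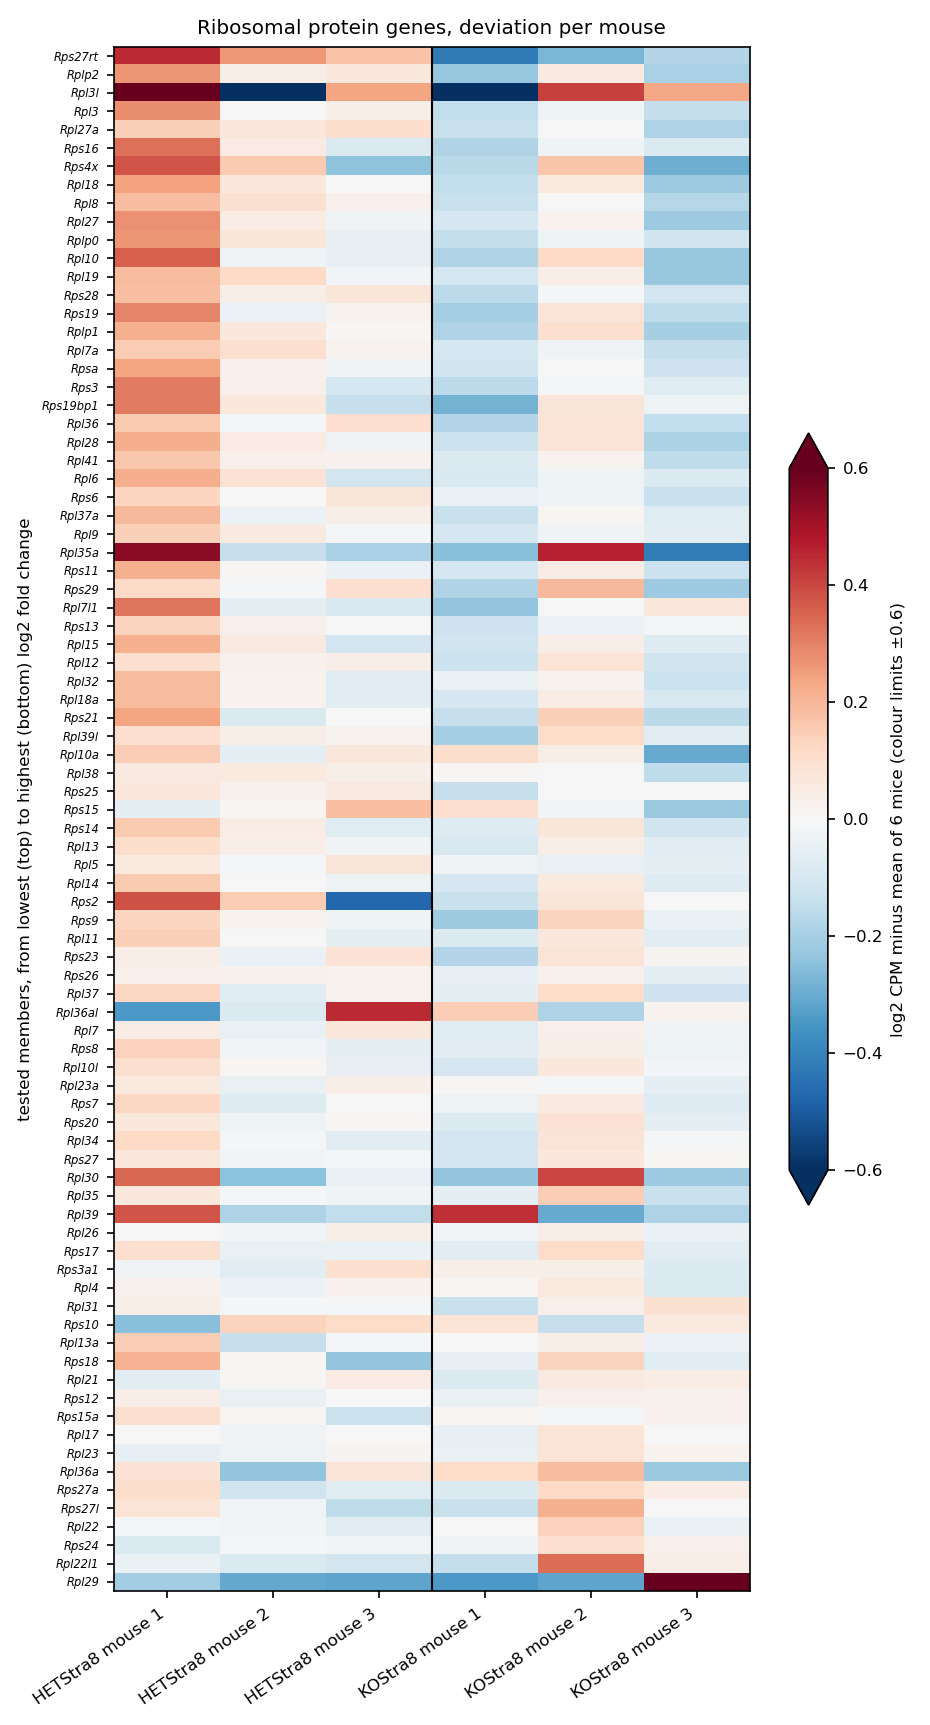
Deviation of log2 CPM from the mean of the 6 mice for 84 of the 85 tested members (rows, ordered by log2 fold change) in each mouse (columns), with colour limits of 0.6 on the log2 scale. HETStra8 mouse 1 is high and KOStra8 mice 1 and 3 are low over most rows, and KOStra8 mouse 2 is close to the HETStra8 mice.

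Rplp0, the member with the highest level, overlapped between the groups. It was at 768, 671 and 618 CPM in HETStra8 and at 578, 628 and 587 CPM in KOStra8. The lowest HETStra8 mouse lay below the highest KOStra8 mouse, and the log2 fold change was -0.20 ± 0.08 (SE, adjusted p = 0.348 by edgeR). Rplp2, which binds Rplp0 as a dimer with Rplp1, was at 89.0, 75.9 and 77.7 CPM in HETStra8 and at 63.2, 76.97 and 64.6 in KOStra8, with a log2 fold change of -0.24 ± 0.10 (adjusted p = 0.343). Rplp1 had a log2 fold change of -0.19 ± 0.09 and Rpsa, the laminin receptor homolog of the small subunit, of -0.17 ± 0.08, and for both the groups overlapped.

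Rplp0 (36B4) was the reference gene of the study's quantitative PCR, and its primer list for RT-PCR also holds Rpl32. Rpl32, a large subunit protein, was at 178, 158 and 149 CPM in HETStra8 and at 151, 158 and 142 in KOStra8, a log2 fold change of -0.10 ± 0.08 (adjusted p = 0.635). Both had their highest value in HETStra8 mouse 1, and without that mouse the log2 fold changes were -0.11 for Rplp0 and -0.03 for Rpl32.

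Among the other members lower at an unadjusted p of 0.05, Rpl8 had the smallest p in the family. Rpl8, a conserved protein near the catalytic centre of the large subunit, was at 260, 244 and 234 CPM in HETStra8 and at 208.5, 229 and 203 CPM in KOStra8. The groups did not overlap, and the log2 fold change was -0.20 ± 0.07 (unadjusted p = 0.0166, adjusted p = 0.305). Rpl27a was at 119, 113 and 116 CPM in HETStra8 and at 98.0, 108 and 94.6 in KOStra8, and Rpl3, which also lines the catalytic centre, at 126.5, 104 and 107 and at 94.0, 103 and 94.5. Neither gene's groups overlapped, and their log2 fold changes were -0.21 ± 0.08 (adjusted p = 0.312 by edgeR) and -0.21 ± 0.09 (adjusted p = 0.356). Rpl7a, Rpl18 and Rps28, with log2 fold changes of -0.18, -0.20 and -0.19, were also among the 9 and are named after their values were seen.

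The 2 largest fold changes in the family came with few counts or from 1 mouse. Rps27rt had 46, 43 and 40 counts in HETStra8 and 27, 25 and 34 in KOStra8, without overlap, and a log2 fold change of -0.62 ± 0.34 (adjusted p = 0.480). Rpl29, a small basic protein of the large subunit, was at 31.1, 29.1 and 28.9 CPM in HETStra8 and at 28.3, 28.9 and 101 CPM in KOStra8. KOStra8 mouse 3 alone was high, 3.51 times the median of the other mice, and the log2 fold change of 0.83 ± 0.63 (adjusted p = 0.660) became -0.06 without it. Of the 50-base stretches of Rpl29, 78.5% occur in other genes, 84 of them.

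Other members with a positive log2 fold change had small values. Rpl22l1, a paralog of Rpl22 and regulator of splicing, was at 22.8, 22.0 and 21.7 CPM in HETStra8 and at 21.2, 29.6 and 24.1 in KOStra8, with a log2 fold change of 0.17 ± 0.12 (adjusted p = 0.602). KOStra8 mouse 2 was the highest and KOStra8 mouse 1 the lowest of all 6. Rps24, Rpl22 and Rps27l had log2 fold changes of 0.08, 0.06 and 0.06. The 4 X-linked members, Rpl10, Rpl36a, Rpl39 and Rps4x, had values of -0.20, 0.05, -0.01 and -0.20, and their groups overlapped. The paralogs Rpl10l and Rpl39l had values of -0.04 ± 0.08 (adjusted p = 0.878 by edgeR) and -0.10 ± 0.09 (adjusted p = 0.676).

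A further 3 members, chosen after their values were seen, differed between mice and not between genotypes. Rpl35a was at 77.5 CPM in HETStra8 mouse 1 and 73.4 in KOStra8 mouse 2, and between 39.9 and 48.4 in the other 4 mice. Rpl30, whose protein also binds its own messenger in yeast, was at 85.8 and 89.1 CPM in the same 2 mice and between 56.8 and 65.4 in the others. Rps2 was at 97.4 CPM in HETStra8 mouse 3 and between 123 and 176 in the others. In that mouse the annotated pseudogene Rps2-ps10 had 786 counts (23.6 CPM), against 1 to 10 counts in each other library. With the counts of both genes added, the levels were 176, 151 and 121 CPM in HETStra8 and 123.5, 142.5 and 136 in KOStra8, so that HETStra8 mouse 3 remained the lowest by a smaller distance.

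**Figure D4:**
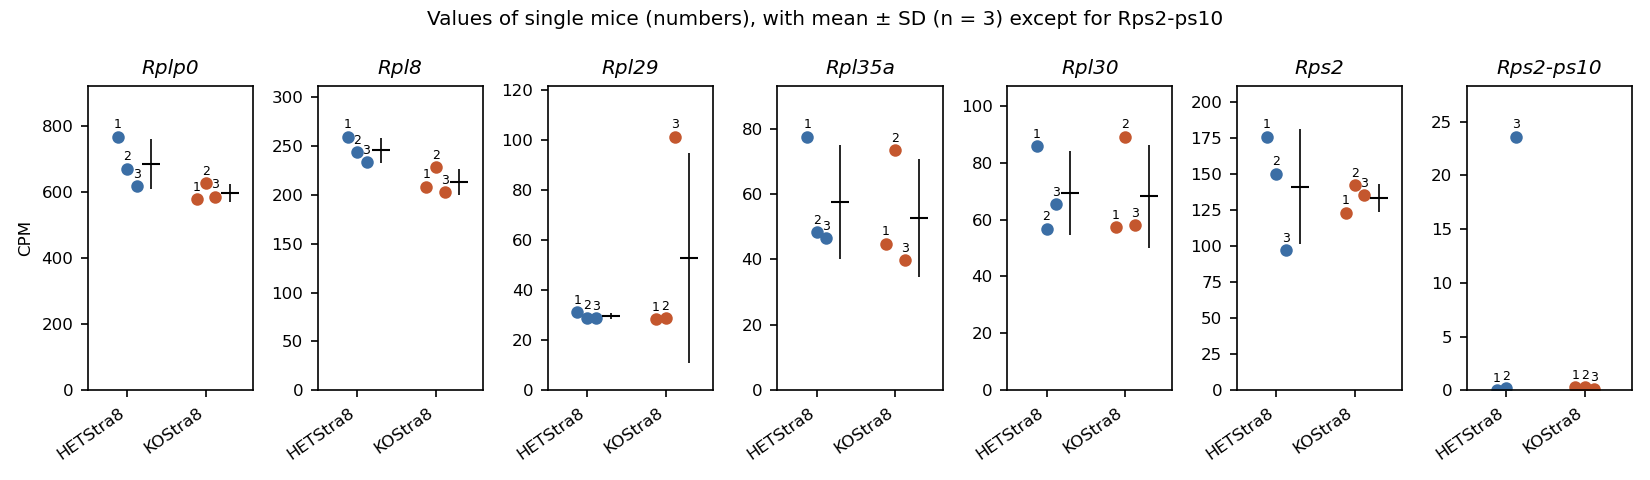
CPM of 6 members and of the pseudogene Rps2-ps10 in each mouse (numbered points, blue for HETStra8 and orange for KOStra8), with the mean ± SD of 3 mice except for Rps2-ps10. Rpl29 is high in KOStra8 mouse 3 alone, Rpl35a and Rpl30 are high in HETStra8 mouse 1 and KOStra8 mouse 2, and Rps2 is low in HETStra8 mouse 3, where Rps2-ps10 is high.

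Base composition moved with the fold changes in these libraries. Across all 21457 tested genes with a GC value, the log2 fold change and the GC content of the transcript had a Spearman correlation of -0.468, and across the 85 members of -0.346. Genes are not independent replicates, and all share the same 6 libraries. The median GC content of the members was 51.6% against 49.5% of all genes tested, and their median transcript length was 729 against 2238 bases. Per mouse, the deviation of log2 CPM from the mean of the 6 mice correlated with GC content at 0.543, 0.431 and -0.1 in HETStra8 mice 1 to 3. In KOStra8 mice 1 to 3 the values were -0.387, -0.263 and -0.533. The trend thus divides by genotype, and a correction cannot tell a technical trend from one of genotype. When each library was corrected for GC content and length, the correlation was -0.005 over all genes, which the fit to these same genes sets near 0. Over the members it was 0.42, so that within the family it changed sign, and their median log2 fold change was -0.02. Then 53 members had a negative value, 62.4% against 49% of all genes, 4 were lower at an unadjusted p of 0.05, 4.71% against 3.02%, and 0 were higher against 4.37%. Only Rpl27a belonged both to these 4 and to the 9 found without the correction, and its corrected log2 fold change was -0.20.

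The other 3 after correction, also named after their values were seen, were Rpl5, Rps20 and Rps25, with corrected log2 fold changes of -0.24, -0.24 and -0.17. For Rpl5 and Rps20 the annotated transcripts have 2045 and 3706 bases, the longest in the family, and the corrected value depends on that choice. Among the members named above, Rpl8 moved from -0.20 to -0.05, Rplp0 from -0.20 to -0.09, Rpl22l1 from 0.17 to -0.07 and Rpl10l from -0.04 to 0.03 with the correction, whereas Rpl39l moved from -0.10 to -0.14.

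**Figure D5:**
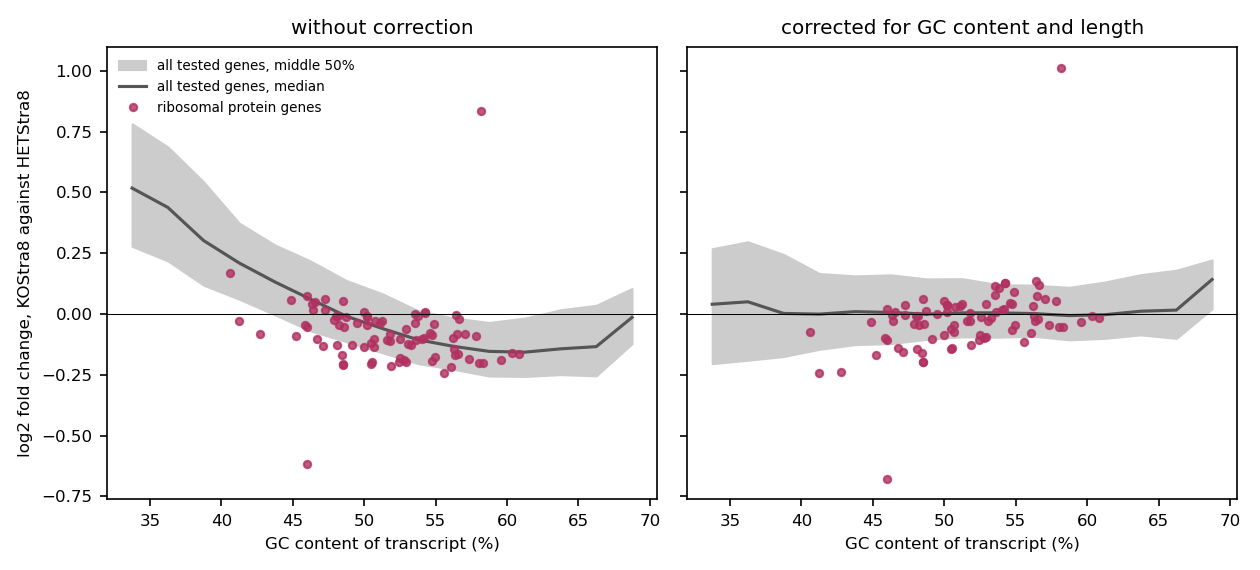
Log2 fold change of KOStra8 over HETStra8 against the GC content of the transcript, without correction (left) and corrected for GC content and length (right), with the 85 members as points and the median and middle 50% of all tested genes as line and band, in bins of at least 20 genes. The line falls with GC content on the left. On the right it stays near 0 over most of the range, since the correction was fitted to these same libraries. The members' median moves from -0.09 to -0.02.

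Markers of somatic cells mostly moved in the same direction as the ribosomal protein genes, and so did those of elongating spermatids, which are germ cells. The summed level of 8 Sertoli cell markers was 1095 to 1301 CPM in HETStra8 and 911 to 1036 CPM in KOStra8. All 8 had a negative log2 fold change, where 51.5% of all genes did. After correction for GC content and length 6 of the 8 did, where 49% of all genes did. The 7 Leydig cell markers, again all negative, summed to 506 to 755 and to 427.5 to 547 CPM, and the 8 elongating spermatid markers to 15450 to 15620 and to 13780 to 15390 CPM. With the correction, 7 of the 7 Leydig cell markers and 5 of the 8 elongating spermatid markers were negative. The low elongating spermatid sum of 13780 CPM was that of KOStra8 mouse 1, against 15390 and 15200 CPM in KOStra8 mice 2 and 3. The 10 spermatocyte markers, 6 of them negative, summed to 5414 to 5720 and to 5430 to 5660 CPM. Of the 8 spermatogonial markers 4 were negative, and of the 8 round spermatid markers 4, so these lists did not move in 1 direction. The 7 macrophage markers, 6 of them negative, summed to 77.2 to 89.8 and to 66.8 to 92.5 CPM. Of the 5 endothelial markers 3 were negative, with sums of 39.2 to 57.1 and 36.2 to 51.8 CPM. All 5 peritubular myoid and all 4 tested blood markers were negative. The summed levels of these last lists overlapped between the groups. The part of these cells in the lower ribosomal protein values was not tested, and in whole testis RNA fewer cells of a type and less RNA per cell cannot be told apart.

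Other short transcripts needed in every cell had a median of similar size. For 17 short genes of the respiratory chain and other functions of all cells, the median log2 fold change was -0.11. Of these, 13 were negative, where 51.5% of all genes were. With the correction for GC content and length the median was -0.03, and 10 were negative, where 49% of all genes were. Their median GC content of 51.75% was close to that of the members, so this comparison cannot tell length from base composition. Log2 fold change and transcript length had a Spearman correlation of 0.021 over all genes tested and of -0.12 over the members. The 77 tested mitochondrial ribosomal protein genes had a median of -0.08, with 60 negative, where 51.5% of all genes were. At an unadjusted p of 0.05, 2 were lower and 1 higher, against 5.12% and 7.13% of all genes. With the correction the median was -0.04, with 51 negative, where 49% of all genes were. At an unadjusted p of 0.05, 4 were then lower and 0 higher, against 3.02% and 4.37% of all genes. Fau and Rack1 encode parts of the cytosolic ribosome but lie outside the symbol rule. Fau, a ubiquitin-like fusion to RPS30, had a log2 fold change of -0.06, and Rack1, a scaffold on the small subunit, of -0.20, both without passing the test.

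Genes that act with the ribosome had log2 fold changes of both signs, as did all genes, of which 51.5% were negative. Of the tested translation factors 24 were negative and 18 positive, and of the ribosome biogenesis factors 32 and 28. With the correction for GC content and length, 26 and 34 were negative, where 49% of all genes were. Of 42 tested translation factors, 5 were higher and 6 lower at an unadjusted p of 0.05, where 7.13% of all genes were higher and 5.12% lower. Their median log2 fold change was -0.05, and 0 passed an adjusted p of 0.05 by edgeR. With the correction for GC content and length, 2 were higher and 7 lower, where 4.37% of all genes were higher and 3.02% lower. Eif3k, a subunit of the initiation factor eIF3, was at 112, 103 and 102 CPM in HETStra8 and at 69.7, 82.6 and 76.97 in KOStra8, with a log2 fold change of -0.47 ± 0.09 and adjusted p = 0.0682 by edgeR. Its groups did not overlap. The adjusted p was 0.000435 with DESeq2, 0.0306 with the replicate block, 0.0495 without HETStra8 mouse 1 and 0.00362 without HETStra8 mouse 3, but 0.0690 with limma-voom, 0.138 with the correction for GC content and length, and 0.149 to 0.417 without any 1 of the other 4 mice. The elongation factor subunit Eef1g was at -0.24 ± 0.07 on that scale (adjusted p = 0.193 by edgeR), and the initiation factor subunits Eif2s2 and Eif3e had values of 0.33 and 0.22. After correction for GC content and length, Eif3k was at -0.35, Eef1g at -0.16, Eif2s2 at 0.12 and Eif3e at -0.02.

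Of 60 ribosome biogenesis factors, 7 were higher and 4 lower at an unadjusted p of 0.05, against 7.13% and 5.12% of all genes. Their median was -0.02, and 0 passed an adjusted p of 0.05 by edgeR. With the correction for GC content and length, 1 was higher and 2 lower, against 4.37% and 3.02% of all genes. Nop58, a core protein of the particles that methylate ribosomal RNA, had a value of 0.38 ± 0.12 (adjusted p = 0.248 by edgeR), and Npm1, the nucleolar chaperone nucleophosmin, had a value of 0.26 ± 0.10. Rrp9 and Pes1, which process ribosomal RNA, had values of -0.30 and -0.27. After correction for GC content and length, Nop58 was at 0.25 and Npm1 at 0.10.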

How the data were processed

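Testis RNA of 3 KOStra8 and 3 HETStra8 mice (1 library each, 150-base paired reads, directional kit) was used. The authors deposited raw counts, a whole number of reads per Ensembl gene and mouse, without normalization. The submitters' notes list STAR 2.7.1a, featureCounts 1.6.0 and HTSeq; which tool made the counts, the strand setting and the treatment of multiply matching reads are not given in the sources used here. Library totals were 28875108 to 36526695 counts, and the common biological coefficient of variation was 0.160. Genes, transcripts and positions are those of GENCODE M21 (GRCm38), with 1 principal transcript per gene for length and GC content.

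Counts were fitted over all genes in R 4.3.3 with edgeR 4.0.16 (filterByExpr, TMM, robust quasi-likelihood fit, genotype as the only term, two-sided F test, Benjamini-Hochberg adjustment over 21465 genes). Adjusted p-values in the text are from this fit, and SE is the size of the log2 fold change divided by the square root of F. A prior count of 2 was added for log2 CPM. Alternatives were DESeq2 1.42.0, limma-voom (limma 3.58.1), other size factors, other filters, the mouse number as a block, loess offsets for GC content and length (span 0.3, fitted above a log2 CPM of 2), and leaving out each mouse. Leaving out a mouse together with the offsets, and adding Rps2-ps10 to Rps2, were chosen after seeing the data. Paralog to parent ratios were compared by exact permutation over mice. The edgeR fit, alone, with the offsets or with the block, DESeq2 and limma-voom were tested on simulated counts. The permutation test, sequence comparisons, marker sums and fits without a mouse were not.

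The members and gene lists were chosen with earlier results of these data known, so the p-values are no independent evidence about the family. Named are paralogs and parents, Rplp0, Rplp1, Rplp2, Rpsa, Rpl32, X-linked members, the 5 largest fold changes and 3 smallest p-values in each direction, the 3 highest and lowest levels, Rpl24, and in other lists up to 2 genes per direction by p. Results for 2 single genes are not reported here. Whether mice with the same number in both groups are paired is not known. Deviations of same-numbered mice correlated at -0.073, -0.119 and 0.177, and those of differently numbered mice at -0.192 to 0.25. With 3 mice per group these values cannot decide it, and the block was run as an alternative only.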

Additional observations from a re-analysis of the deposited data

How the results depend on the processing

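No tested member passed an adjusted p of 0.05, nor the cutoffs of 0.01 and a fold of 2, under any alternative that was run; the smallest adjusted p was 0.0504, for Rplp0 without HETStra8 mouse 3. The count of members lower at an unadjusted p of 0.05 was 9, where 5.12% of all genes were lower. It was 4 with the offsets for GC content and length, alone or with the replicate block, where 3.02% and 2.66% of all genes were lower. With the replicate block alone it was 8, 9.41% against 4.67% of all genes. Leaving out 1 mouse gave 0 to 18 lower and 0 to 1 higher members, and with the offsets as well 2 to 11 lower and 0 to 1 higher. Of all genes, 2.27% to 8.81% were lower and 4.29% to 11% higher with 1 mouse left out. With the offsets as well, 1.85% to 4.93% of all genes were lower and 2.69% to 6.98% higher. The median log2 fold change of -0.09 was -0.02 with the offsets, and with them 0.0089 without HETStra8 mouse 1 and -0.0015 without KOStra8 mouse 3. Without any filter, 13 members were lower at an unadjusted p of 0.05, 15.1% against 4.26% of all genes. The literal reading of the rule, in which only symbols ending in exactly -ps are left out, gave 92 members. For the 8 members with under 10% of their 50-base stretches in other genes, the median was -0.17, with 8 negative. With the offsets it was -0.07, with 7 negative. Of all genes 51.5% and 49% were negative. The other 77 tested members had medians of -0.08 and, with the offsets, -0.01. Among the 8 are Rps19bp1, which is no subunit, and Rpl3l, with 4 to 15 counts per library.

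Genes past an adjusted p of 0.05 among translation factors numbered 0, but 4 without a filter, 1 with the replicate block, 1 with DESeq2 and 0 to 10 with 1 mouse left out, the most without HETStra8 mouse 3, where 3 remained with the offsets. Calls over all genes rose in the same fits, from 4 higher and 1 lower to 542 and 118 without a filter. They were 163 and 12 with the replicate block and 306 and 48 with DESeq2. Without HETStra8 mouse 3 they were 868 and 214, and 199 and 42 with the offsets as well. Ribosome biogenesis factors gave 1 without a filter and 0 to 5 with 1 mouse left out, and mitochondrial ribosomal proteins 0 to 2, the most again without HETStra8 mouse 3. With 1 mouse left out, the difference in log2 ratio ran from -0.30 to 0.22 for Rpl39l to Rpl39, from -0.30 to 0.42 for Rpl3l to Rpl3, from -0.17 to 0.0517 for Rpl7l1 to Rpl7, from -0.29 to 0.11 for Rpl36al to Rpl36a and from -0.13 to 0.0559 for Rps4l to Rps4x, so the sign of these 5 rests on single mice. With a prior count of 0.5 that of Rpl3l was -0.0099. The cause of these changes was not tested. Counts under about 50 per library, as for Rpl24, Rpl3l, Rps10 and Rps27rt, limit what can be said of these genes.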
